A study of Mus musculus with 2 samples.

Results

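The ETS family of transcription factors outside Spi1 was followed in the fetal liver through 7 genes, Fli1, Erg, Etv6, Ets1, Ets2, Elf1 and Gabpa, out of 27998 genes counted. The genes were chosen by name from the family, with earlier results of these data known, and the rule uses no measured value. Single cells of 1 untreated wild-type C57BL/6 (C57BL/6J in the study's methods) mouse liver at E12.5, with no targeted allele, were sorted to remove debris, dead cells and doublets and were sequenced as 2 technical replicate libraries on a droplet platform. The deposited cell table names 9 cell types. They are hematopoietic stem and progenitor cells (HPSC in the table's spelling), erythroid-committed progenitors (Ery, subclusters Ery 1 and Ery 2), erythroblasts (Eryb, subclusters Ery 3 to Ery 6), EryP (a cluster with embryonic globins), megakaryocytes (Mk), endothelial cells (EC), granulocytes (G), monocytes and Kupffer cells (Mo/KC) and hepatoblasts (Hepa).

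ETS factors share a winged helix-turn-helix domain that binds DNA at a GGAA core. FLI1 and ERG act together with GATA, RUNX and TAL1 complexes in blood stem cells, and both also work in endothelium, while FLI1 is needed for megakaryocyte maturation. ETV6 is a repressor required by adult stem cells, ETS1 and ETS2 are close relatives that respond to growth factor signalling, ELF1 is widely active in blood cells, and GABPA binds DNA as a complex with GABPB and serves housekeeping and mitochondrial genes.

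For each cell type or erythroid subcluster the unique molecular identifiers (UMIs, each marking 1 captured RNA molecule) of a gene were summed within a library and scaled by the total UMIs of that group, giving counts per 1000000 UMIs (CPM). The intervals given are exact 95% intervals that cover counting error only, since there was 1 liver, so no test between animals was possible and no p-value is given. Library 1 held 5480 cells with 51969226 UMIs and library 2 held 5057 cells with 62738015 UMIs, and 31 cell barcodes occurred among the cells of both. The smallest groups were EC with 20 and 26 cells, Hepa with 33 and 31, Mo/KC with 56 and 58 and Mk with 79 and 56, against 213 and 208 HPSC cells and 375 and 359 cells of Ery 1. Levels were compared between groups of cells for the same gene, and levels of different genes were not ranked against each other.

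The labels were compared with their marker genes. The 5 Mk markers summed to 16000 and 13449 CPM in Mk in libraries 1 and 2, and to 87.8 and 35.3 CPM in EC. The 6 EC markers summed to 3541 and 3095 CPM in EC, and in Mk to 148 and 79.9 CPM, where Cldn5 and Cdh5 were at 0 in library 1. All 5 stellate or mesenchymal markers had UMIs in Mk, with a sum of 160 and 176 CPM, against 0 and 54.7 CPM in EC. No UMI of the 4 lymphoid markers was found in Mk or EC, and in HPSC they summed to 16.2 and 17.9 CPM. The 5 HPSC markers summed to 863 and 822 CPM in HPSC and to 409 and 437 CPM in G. The 5 G markers summed to 1284 and 1322 CPM in HPSC, against 18922 and 14488 CPM in G. The part that cells with G or lymphoid markers in HPSC have in the levels given here was not tested. Nor was the part of the mesenchymal and endothelial UMIs in Mk.

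Promoter windows of 250 bases, from RefSeq on GRCm38.p6, were at hand for 5 of the 7 genes, Erg, Etv6, Ets2, Elf1 and Gabpa. The windows were searched on both strands for CCGGAAG, or CTTCCGG on the other strand, a preferred ETS site built on the GGAA core, which 6.91% of 32851 listed mouse promoter windows hold. Gabpa alone of the 5 held a match, shown in capitals within the 30 bases of chr16:84835019-84835048 on the plus strand. These bases lie before the RefSeq start used for the window, but inside the gene bounds given below, which begin at 84834925. The windows of Erg (chr16:95586594-95586843, minus strand, the outermost of its 3 listed starts) and Etv6 (chr6:134035450-134035699, plus strand) held none and are shown because Erg and Etv6 are among the genes called lower both from HPSC to Ery 1 and from Ery 1 to Ery 2.
Gabpa: ggagggtaagtgCTTCCGGgtccctcagct
Erg: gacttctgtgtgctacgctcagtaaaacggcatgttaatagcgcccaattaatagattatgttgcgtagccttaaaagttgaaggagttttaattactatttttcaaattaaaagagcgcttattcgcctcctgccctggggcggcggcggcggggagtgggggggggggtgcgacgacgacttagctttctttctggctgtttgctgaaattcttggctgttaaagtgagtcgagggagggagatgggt
Etv6: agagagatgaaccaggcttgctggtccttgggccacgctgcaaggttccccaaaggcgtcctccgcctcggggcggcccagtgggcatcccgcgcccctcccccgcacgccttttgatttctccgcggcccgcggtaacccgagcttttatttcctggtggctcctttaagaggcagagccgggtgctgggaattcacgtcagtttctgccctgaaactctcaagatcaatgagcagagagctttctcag
The GATA sequence AGATAA, or TTATCT on the other strand, occurs in 9.99% of the listed windows and in 1 of the 3 Erg windows, at none of the other 4 genes. A match is a run of letters only and no binding was measured here.

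Fli1 (chromosome 9, 32422204 to 32542861, minus strand, GRCm38) had its highest level in megakaryocytes. It was at 168 CPM (140 to 199) in Mk in library 1 and 165 CPM (141 to 192) in library 2. EC followed with 111 CPM (74.1 to 159) and 93.5 CPM (70.0 to 122), below Mk in both libraries by more than the counting error. G had 63.4 and 53.3 CPM, HPSC 57.4 CPM (49.7 to 66.0) and 42.6 CPM (35.6 to 50.4), and Mo/KC 45.7 and 41.8 CPM. Neighbours among these 3 did not differ beyond counting error in each library. Ery 1 had 12.1 CPM (9.98 to 14.4) and 10.0 CPM (8.08 to 12.3), and every later erythroid subcluster lay between 0 and 1.03 CPM. Hepatoblasts held 0 and 3 UMIs of Fli1.

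Erg (chromosome 16, 95359169 to 95586593, minus strand), a close relative of Fli1, was near 0 in megakaryocytes. EC held 53.4 CPM (29.2 to 89.6) and 45.9 CPM (30.0 to 67.2), and HPSC 31.3 CPM (25.7 to 37.8) and 25.3 CPM (20.02 to 31.5), which differed from EC beyond counting error in library 2 only. G had 13.2 and 13.7 CPM, below HPSC in both libraries. In Mk, 1 UMI was found in each library, or 1.30 CPM (0.0329 to 7.24) and 0.986 CPM (0.0250 to 5.49), and Ery 1 had 1.32 and 1.51 CPM. Mo/KC held 5 UMIs in 2 cells of library 1 and none in library 2, and Hepa held none in either. The high groups of Erg were therefore EC and HPSC, and those of Fli1 Mk and EC.

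**Figure D1:**
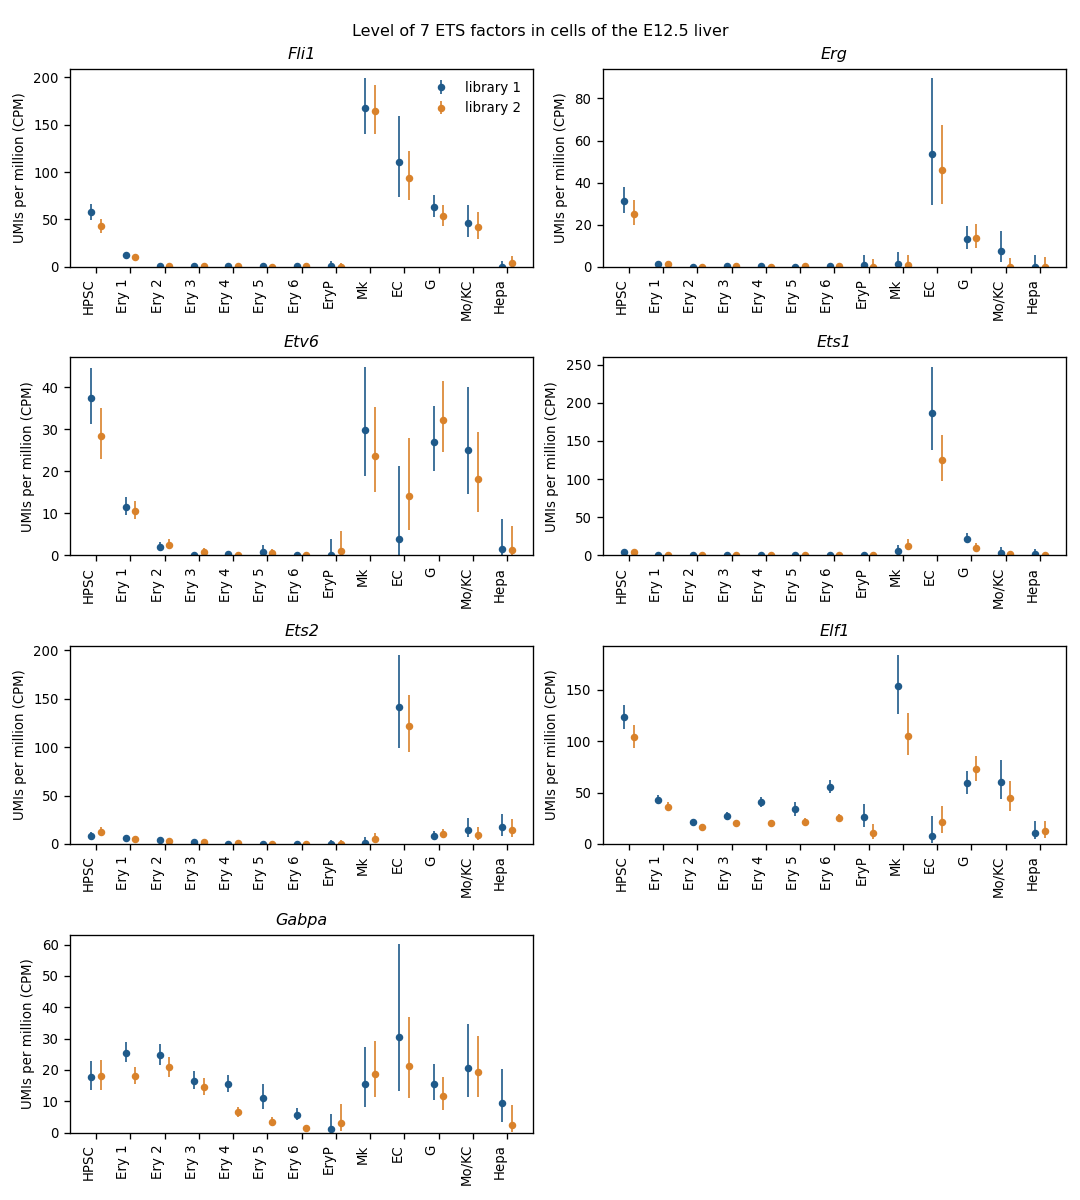
Level of each ETS factor in CPM (y axis, linear, with its own range in each panel) in 13 groups of cells (x axis), with points for libraries 1 and 2 and bars for exact 95% Poisson intervals. Fli1 is highest in Mk at 168 and 165 CPM. Erg has 1.30 and 0.986 CPM in Mk against 53.4 and 45.9 CPM in EC, and Ets1 and Ets2 are far higher in EC than in the other groups.

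Etv6 (chromosome 6, 134035700 to 134270158, plus strand) was spread over the non-erythroid blood cells. HPSC held 37.4 CPM (31.2 to 44.4) and 28.5 CPM (22.9 to 35.1), G 27.0 and 32.2 CPM, Mk 29.9 and 23.7 CPM, and Mo/KC 25.0 and 18.1 CPM. No neighbours in this order differed beyond counting error in each library. EC had 1 UMI in library 1 and 8 in library 2, or 3.82 CPM (0.0966 to 21.3) and 14.1 CPM (6.09 to 27.8). Ery 1 had 11.5 and 10.6 CPM and Ery 2 2.07 and 2.53 CPM, and Hepa had 1 UMI in each library.

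Ets1 and Ets2 had their highest levels in endothelial cells. Ets1 (chromosome 9, 32636221 to 32757820, plus strand) reached 187 CPM (138 to 247) and 125 CPM (97.8 to 158) in EC, and Ets2 (chromosome 16, 95702075 to 95721051, plus strand) 141 CPM (99.4 to 195) and 122 CPM (94.7 to 154). With both libraries added, G was next in the order for Ets1, at a ratio to the EC level of 0.116 (0.0746 to 0.179) in library 1 and 0.0800 (0.0455 to 0.134) in library 2. For Ets2 the next group was Hepa, with EC 8.22-fold (4.10 to 17.9) and 8.22-fold (4.42 to 16.7) above it. For the other 5 genes the first group was at most 1.81-fold above the next in either library. Ets2 in Hepa stood at 17.2 and 14.8 CPM, in Mo/KC at 14.7 and 9.04, in HPSC at 8.70 and 12.8, in G at 8.46 and 10.0 and in Mk at 1.30 and 4.93 CPM. Ets1 had 4.64 and 4.16 CPM in HPSC and 5.19 and 12.8 CPM in Mk, and at most 0.327 CPM in the erythroid subclusters. The largest possible share of free RNA in the UMIs of a non-erythroid group was taken from the globin gene Hbb-bs alone. At that share, free RNA would give 3.71 and 0.528 of the 16 and 13 Ets1 UMIs counted in HPSC.

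In granulocytes Ets1 was at 21.7 CPM (15.6 to 29.4) and 10.0 CPM (6.03 to 15.6), above Mk in library 1 but not in library 2, and the G cells were not alike. Cells with more UMIs of late (secondary) granule genes than of early (primary) ones had Ets1 at 45.9 CPM (31.2 to 65.2) and 27.0 CPM (16.0 to 42.7), against 8.22 CPM (3.94 to 15.1) and 0.813 CPM (0.0206 to 4.53) in the remaining G cells. This split was made after the data had been seen. Etv6 and Elf1 had the opposite order, at 14.8 and 7.51 CPM of Etv6 in the late cells against 33.7 and 45.5 CPM, and at 34.1 and 42.0 CPM of Elf1 against 73.2 and 89.4 CPM. Fli1 did not differ beyond counting error between them, at 69.6 and 57.1 CPM in late cells and 60.0 and 51.2 CPM in the others.

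Of the 7 genes, 4 lie in neighbouring pairs. Fli1 and Ets1 are next to each other on chromosome 9 with 93359 bases between them, and Erg and Ets2 on chromosome 16 with 115481 bases between them. Within each pair the levels parted in EC, each gene being compared with itself between groups. Fli1 in EC was 1.93-fold and 2.20-fold its HPSC level in libraries 1 and 2, and Ets1 40.3-fold and 30.1-fold. In Mk, Fli1 was 2.92-fold (2.32 to 3.66) and 3.87-fold (3.06 to 4.90) its HPSC level. Ets1 there was 1.12-fold (0.272 to 3.47) and 3.08-fold (1.32 to 7.21), from 4 and 13 UMIs, with intervals that overlap those of Fli1. Erg in EC was 1.71-fold and 1.81-fold its HPSC level, and Ets2 16.2-fold and 9.51-fold.

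Elf1 (chromosome 14, 79481194 to 79582494, plus strand) had UMIs in every group. The fewest were 2 in EC of library 1, where free RNA at its largest possible share would give 1.34. Mk held 153 CPM (127 to 184) and 106 CPM (86.5 to 127), and HPSC 123 CPM (112 to 136) and 104 CPM (93.0 to 116), not apart from Mk beyond counting error in library 2. G had 59.2 and 72.8 CPM, Mo/KC 60.4 and 45.2 CPM and Ery 1 42.9 and 36.3 CPM. With both libraries added, the last 4 groups in the order were Ery 2 with 21.1 and 16.8 CPM, EryP with 26.1 and 10.4 CPM, EC with 7.63 CPM (0.924 to 27.6) and 21.2 CPM (10.9 to 37.0) and Hepa with 10.9 and 12.3 CPM, and no neighbours among them differed beyond counting error in each library. The libraries differed in Elf1 by more than counting error in 9 of 13 groups, more often than for any other of the 7 genes, and 17 of all 91 pairs of gene and group did so. Elf1 also had the most UMIs of the 7 genes, 4196 against 1630 of Gabpa as the next, so smaller differences exceed its counting error. The share of all genes that differ between the libraries is not given here.

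Gabpa (chromosome 16, 84834925 to 84863779, plus strand) had UMIs in every group too. It lay at 30.5 CPM (13.2 to 60.2) and 21.2 CPM (10.9 to 37.0) in EC, 25.5 and 18.1 CPM in Ery 1, 24.8 and 20.8 CPM in Ery 2, 20.6 and 19.2 CPM in Mo/KC, 17.7 and 17.9 CPM in HPSC, 15.6 and 18.7 CPM in Mk and 15.3 and 11.6 CPM in G. No neighbours in its order of groups differed beyond counting error in both libraries. With both libraries added, the lowest were EryP with 1 and 3 UMIs and Ery 6 with 32 and 13. Free RNA at a set 20% of the EryP UMIs would give 2.72 and 2.76 Gabpa UMIs there. Gabpa overlaps Atp5j on the other strand by 701 bases, and Elf1 overlaps Wbp4 on the other strand by 327 bases. Whether the counting used strand is not given in the sources used here, and the part of reads from these overlaps was not tested. The level of Wbp4 was 45.8 and 48.6 CPM in HPSC and 61.1 and 95.3 CPM in EC, an order opposite to that of Elf1. Atp5j was at 463 and 495 CPM in Ery 2 and at 165 and 104 CPM in Ery 6, the same order as that of Gabpa.

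The share of a gene's UMIs that each cell type holds also depends on the number of its cells. HPSC held 5.73% of all UMIs, but 57.2% (51.6 to 62.6) of the Erg UMIs, 31.5% of those of Etv6, 26.5% of those of Fli1 and 17.9% of those of Elf1. EC held 0.723% of all UMIs, but 49.6% (43.1 to 56.1) of those of Ets1 and 22.5% (18.8 to 26.5) of those of Ets2. Mk held 1.56% of all UMIs and 23.7% (21.3 to 26.1) of those of Fli1. Ery held 32.3% of all UMIs. It held more than any other cell type of the UMIs of Gabpa (50.9%), Etv6 (36.5%) and Ets2 (36.1%). Elf1 and Gabpa had 41.1% and 33.1% of their UMIs in erythroblasts, against 52.1% of all UMIs, and for the other 5 genes erythroblasts held between 1.92% and 9.13%. The shares of all UMIs include globin UMIs, which made up 50.1% of the UMIs in erythroblasts. The 52.1% would be lower without them and was not recalculated, so it does not place Elf1 or Gabpa below the other non-globin genes.

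**Figure D2:**
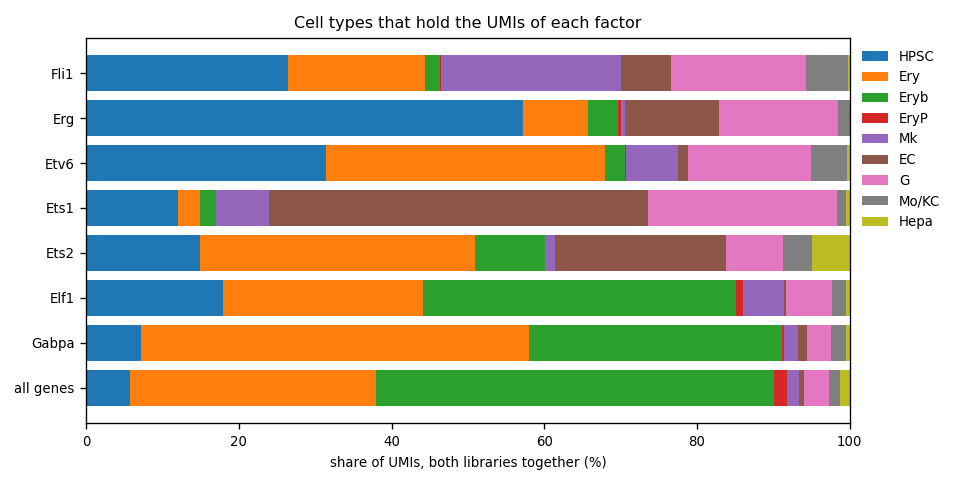
Share of the UMIs of each factor, and of all genes together in the lowest bar, that was counted in each of 9 cell types, with both libraries added (x axis, percent). Erythroblasts (Eryb) hold 52.1% of all UMIs, globin UMIs included, but 1.92% of those of Fli1, and EC hold 49.6% of those of Ets1.

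The share of cells with a UMI of a gene was compared after thinning, that is, at an equal number of 3600 UMIs drawn from each cell, as the expected share over all draws, with shallower cells left out (46 of 79 Mk cells of library 1 and 56 of 56 of library 2 remained). In Mk, 41.7% and 40.2% of thinned cells had a UMI of Fli1, against 31.3% and 26.6% in EC, 19.0% and 14.4% in HPSC, 5.65% and 4.46% in Ery 1 and 0.428% and 0.453% in Ery 2. Unthinned, the shares were 45.6% and 71.4% in Mk, 70.0% and 65.4% in EC and 56.3% and 40.4% in HPSC. In Hepa, whose cells are deeper than HPSC cells, with a median of 22391 and 21910 UMIs against 16053 and 14956, 0% and 0.801% of thinned cells had a Fli1 UMI, and 0% and 9.68% unthinned. Erg was seen in 16.0% and 15.8% of thinned EC and 11.6% and 9.35% of thinned HPSC, and in 0.501% and 0.797% of thinned Mk. Unthinned, these shares were 45.0% and 50.0% in EC, 38.5% and 28.8% in HPSC and 1.27% and 1.79% in Mk. Thinned shares and levels of Fli1 gave the same order of Mk, EC, HPSC and Ery 1.

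At the same thinned depth, any of the 7 genes was seen in 79.4% of EC, 67.6% of Mk, 58.9% of HPSC and 29.0% of Ery 1 cells, and in 95.7%, 76.3%, 93.3% and 82.8% without thinning. Fli1 and Erg were counted in the same cell in 76 of 421 HPSC cells, 16 of 46 EC and 2 of 135 Mk cells, without thinning. At least 4 of the 7 genes were seen in 27 of 46 EC, 90 of 421 HPSC, 10 of 135 Mk and 45 of 734 Ery 1 cells. The median number of the 7 genes seen in a cell was 4 in EC, 2 in HPSC, 2 in Mk and 1 in Ery 1, at median depths of 14728, 15462, 11585 and 26043.5 UMIs in the same order.

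For comparisons between groups, a gene was called higher or lower when its CPM differed at least 2-fold in the same direction in each library, with at least 10 UMIs in both groups together per library and with counts under 3 in the lower group set to 3. The setting to 3 serves the calls only, and the folds printed are ratios of the counts as found unless the setting is named. Calls of this kind describe these libraries and are no test of a condition. In Mk against HPSC, Fli1 was higher and Erg and Ets2 were lower among the 7 genes, all of which had enough UMIs, while 8.18% of all genes compared were higher and 7.02% lower. Fli1 was 2.92-fold (2.32 to 3.66) and 3.87-fold (3.06 to 4.90) higher. Erg was 24.1-fold (4.24 to 961) and 25.6-fold (4.47 to 1025) lower, from 1 UMI in each library. Ets2 was 6.70-fold (1.11 to 273) and 2.60-fold (1.02 to 8.43) lower, from 1 and 5 UMIs. Etv6, Elf1 and Gabpa each had ratios between 0.799 and 1.24 in the 2 libraries, and Ets1 had 1.12 (0.272 to 3.47) and 3.08 (1.32 to 7.21), with 4 and 13 UMIs in Mk.

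EC against HPSC gave another division. Ets1 was 40.3-fold (22.5 to 75.9) and 30.1-fold (16.5 to 59.3) higher and Ets2 16.2-fold (9.76 to 27.2) and 9.51-fold (6.35 to 14.4) higher, where 10.7% of all genes were called higher. Elf1 was 16.1-fold (4.44 to 134) and 4.91-fold (2.77 to 9.61) lower and Etv6 9.80-fold (1.73 to 390) and 2.02-fold (0.981 to 4.82) lower, where 5.17% of all genes were called lower. The Etv6 call rested on 1 and 8 UMIs in EC, and in library 2 its interval held 1. Fli1 missed the fold in library 1, at 1.93-fold (1.26 to 2.86) and 2.20-fold (1.57 to 3.04) higher, and Erg in both, at 1.71-fold (0.903 to 2.99) and 1.81-fold (1.12 to 2.86).

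In EC against Mk, Erg, Ets1 and Ets2 were higher and Elf1 was lower, where 10.1% and 7.18% of all genes were called higher and lower. The ratios of Erg were 41.1 (6.26 to 1740) and 46.5 (7.64 to 1907), those of Ets1 36.0 (13.2 to 137) and 9.77 (5.37 to 19.2) and those of Ets2 109 (18.3 to 4409) and 24.7 (10.1 to 78.4). Elf1 was 20.1-fold (5.44 to 168) and 4.98-fold (2.74 to 9.95) lower in EC. The 3 comparisons among EC, Mk and HPSC share their cells and are not independent.

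**Figure D3:**
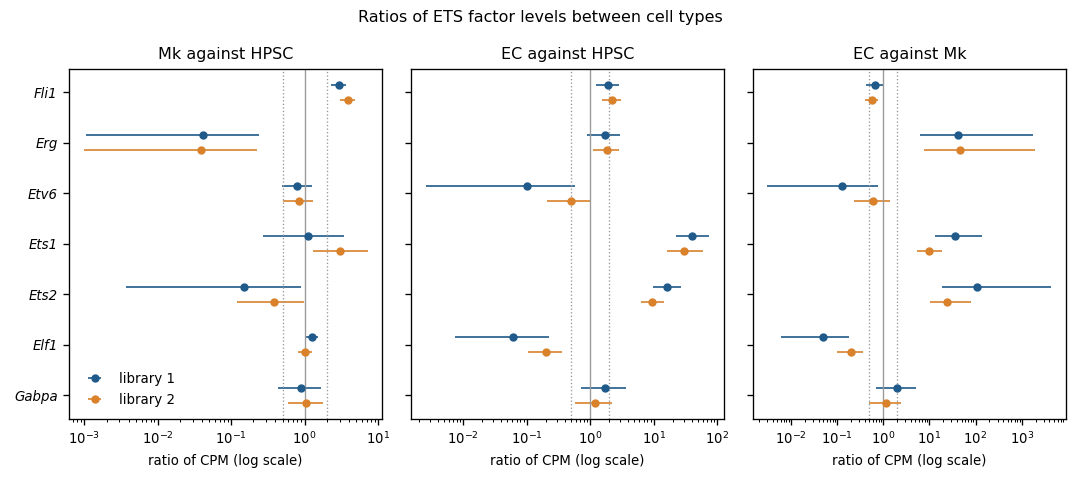
Ratio of CPM between cell types (x axis, log scale) for each of the 7 factors, with points for libraries 1 and 2, bars for exact 95% conditional intervals, a solid line at 1 and dotted lines at a 2-fold difference. Fli1 lies right of the 2-fold line in Mk against HPSC while Erg lies far to the left, and Ets1 and Ets2 lie right of it in both EC comparisons.

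On entry into the erythroid lineage, in Ery 1 against HPSC, 5 of the 7 genes were called lower and none higher, where 17.4% of all genes were called lower and 5.53% higher. Erg was 23.8-fold (13.3 to 46.1) and 16.8-fold (9.43 to 32.1) lower, Fli1 4.76-fold (3.78 to 6.03) and 4.25-fold (3.24 to 5.60), Etv6 3.24-fold (2.50 to 4.20) and 2.70-fold (2.00 to 3.63) and Elf1 2.87-fold (2.50 to 3.29) and 2.87-fold (2.45 to 3.35). Ets1 had 0 and 2 UMIs in Ery 1 against 16 and 13 in HPSC, 15.3-fold lower in library 1 when its 0 is set to 3 UMIs. The exact interval of the Ets1 ratio in library 1 ran from 0 to 0.0906. Ets2 missed the fold in library 1, with 5.98 and 5.06 CPM in Ery 1 against 8.70 and 12.8 CPM. Gabpa was 1.44-fold (1.09 to 1.94) higher in library 1 and 1.01-fold (0.742 to 1.39) in library 2. Counted per cell instead of per UMI, 3 genes were called lower, Fli1, Erg and Ets1. The median was 26146 and 25977 UMIs in an Ery 1 cell against 16053 and 14956 in an HPSC cell. The 17.4% and 5.53% of all genes are per UMI, and the shares called per cell are not given here.

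From Ery 1 to Ery 2, Fli1, Erg, Etv6 and Elf1 were called lower and none higher among the 6 genes with enough UMIs, where 11.9% of all genes were called lower and 2.25% higher. Fli1 was 15.8-fold (7.44 to 40.2) and 14.5-fold (6.43 to 40.6) lower, Etv6 5.58-fold (3.42 to 9.61) and 4.18-fold (2.61 to 6.97) and Elf1 2.03-fold (1.71 to 2.42) and 2.16-fold (1.78 to 2.65). Erg had 1 and 0 UMIs in Ery 2 against 13 and 14 in Ery 1. Ets2 had 3.92 and 3.22 CPM against 5.98 and 5.06, and Gabpa did not differ beyond counting error, at 24.8 and 20.8 CPM against 25.5 and 18.1. Free RNA, measured in barcodes with 1 to 50 UMIs, held Fli1 at 12.7 CPM (8.20 to 18.7) and 9.18 CPM (5.44 to 14.5), and free RNA at 20% of the UMIs of Ery 2 would give 23.3 and 16.0 UMIs of Fli1, more than the 7 and 6 found. The 20% was set and not measured, and the share of free RNA in the erythroid cells and its part in these UMIs were not tested. At the same 20%, free RNA would give 25.0 and 17.1 of the 119 and 93 Fli1 UMIs of Ery 1.

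Ery 1 was the group in which these genes were between their HPSC and Ery 2 levels, so its cells were parted, after the data had been seen, into 4 equal parts by their share of globin UMIs within each library. The median globin share went from 0.693% to 1.02% in library 1 and from 0.804% to 2.28% in library 2. Globin UMIs made up 1.07% and 2.37% of all UMIs in Ery 1, no more than the 1.59% and 2.94% in HPSC. Whether the order of the parts is an order of erythroid maturation was not tested. From the lowest to the highest part Etv6 went from 17.0 CPM (12.2 to 23.2) to 8.98 CPM (5.62 to 13.6) in library 1 and from 16.7 CPM (12.0 to 22.7) to 6.93 CPM (3.88 to 11.4) in library 2. The Etv6 intervals overlap in library 1 and not in library 2. Elf1 went from 54.9 CPM (45.8 to 65.2) to 33.0 CPM (26.2 to 41.1) in library 1 and from 41.2 CPM (33.5 to 50.04) to 30.5 CPM (23.6 to 38.8) in library 2, where the intervals overlap. Fli1 went from 23.8 CPM (18.0 to 30.9) to 6.94 CPM (4.04 to 11.1) in library 1, with its lowest value of 3.04 CPM in the third part, and from 13.9 CPM (9.60 to 19.4) to 8.32 CPM (4.93 to 13.2) in library 2, where the intervals overlap. Gabpa was not lower in the highest part beyond counting error, with 19.6 and 17.5 CPM in the lowest and 27.7 and 17.1 CPM in the highest part.

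**Figure D4:**
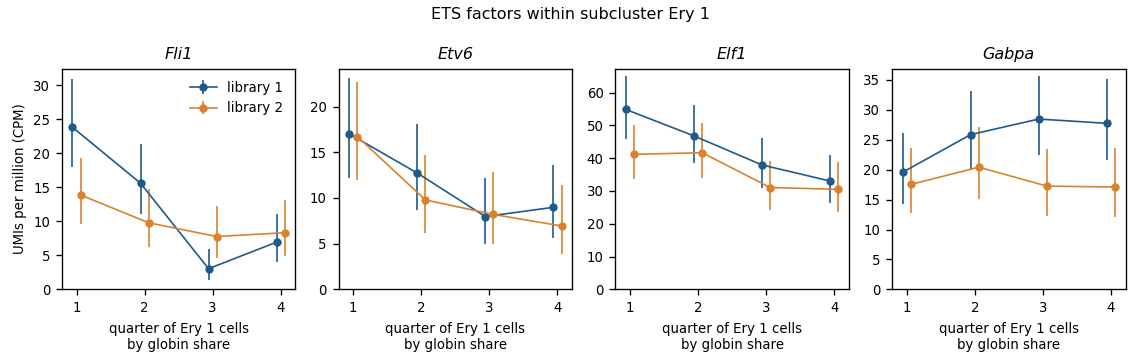
Level of 4 factors in CPM (y axis, from 0) in 4 equal parts of the Ery 1 cells of each library, from the lowest to the highest share of globin UMIs (x axis), with exact 95% Poisson intervals. Etv6 has lower values in the last part than in the first in both libraries, 17.0 and 8.98 CPM and 16.7 and 6.93 CPM, with bars that overlap in library 1.

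Later steps held few calls. Globin UMIs made up 3.31% and 7.43% of all UMIs in Ery 2 and 58.1% and 78.5% in Ery 6 (libraries 1 and 2), and the median log2 ratio of all genes compared moved with them, by -0.25 from Ery 1 to Ery 2, -0.45 to Ery 3, -0.73 to Ery 4, -0.72 to Ery 5 and -0.47 to Ery 6. In Ery 3 against Ery 2, Etv6 was lower, from 19 and 22 UMIs to 1 and 7, and none of the 4 genes with enough UMIs was higher (17.6% of all genes lower, 2.25% higher). In Ery 4 against Ery 3, Ets2 was lower, from 17 and 14 UMIs to 3 and 8, and none of 3 was higher (25.0% and 1.06%). With globin UMIs left out of the denominator no member was called there, and the shares of all genes called that way are not given here. In Ery 5 against Ery 4 (16.9% lower, 0.200% higher) and Ery 6 against Ery 5 (22.4% lower, 3.07% higher) the 2 genes with enough UMIs, Elf1 and Gabpa, were not called. Ets2 had 0 UMIs in Ery 5 of both libraries, which allows up to 1.03 and 0.512 CPM when a 0 is set to 3 UMIs.

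Elf1 and Gabpa, the pair still counted in late erythroblasts, went apart. On all UMIs, Elf1 was lowest in Ery 2 among Ery 1 to Ery 6, with 21.1 and 16.8 CPM. It was at 27.0 and 20.4 CPM in Ery 3, 40.7 and 20.2 CPM in Ery 4, 33.5 and 21.3 CPM in Ery 5 and 55.5 and 25.4 CPM in Ery 6. Library 1 was above library 2 in Ery 4 to Ery 6, where its globin share was lower, and the part of the globin UMIs in this was not tested. With globin UMIs left out of the denominator Elf1 was at 21.8 and 18.1 CPM in Ery 2, 132 and 118 in Ery 6 and 125 and 107 in HPSC. Ery 6 against Ery 2 was compared after the data had been seen. On all UMIs no member was higher, with Elf1 at 2.63-fold (2.19 to 3.16) and 1.52-fold (1.23 to 1.87), and Etv6, Ets2 and Gabpa were lower among 5 genes with enough UMIs (3.99% of all genes higher, 74.1% lower). Without globin UMIs, Elf1 was 6.06-fold (5.05 to 7.28) and 6.53-fold (5.30 to 8.06) higher, Fli1 was also called from 4 UMIs in each library against 7 and 6, and Ets2 was lower (14.1% of all genes higher, 41.5% lower). Counted per cell, Elf1 was 1.34-fold (1.12 to 1.61) and 1.48-fold (1.20 to 1.83) lower, at 0.259 and 0.214 UMIs per cell in Ery 6 against 0.348 and 0.318 in Ery 2, while the median log2 ratio per cell of the 9282 genes compared was -4.18. The direction of Elf1 thus turned with the scale, from higher per UMI to lower per cell.

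Gabpa had lower values in Ery 6 than in Ery 2 on each scale. On all UMIs it was at 24.8 and 20.8 CPM in Ery 2, 16.5 and 14.5 in Ery 3, 15.5 and 6.41 in Ery 4, 11.0 and 3.24 in Ery 5 and 5.62 and 1.31 in Ery 6, where it was 4.42-fold (3.04 to 6.61) and 15.8-fold (9.04 to 30.3) lower than in Ery 2. Without globin UMIs it was 1.92-fold (1.32 to 2.87) and 3.68-fold (2.099 to 7.05) lower, and per cell 15.6-fold (10.7 to 23.3) and 35.7-fold (20.3 to 68.3). The median log2 ratio of all genes compared was -2.74 on all UMIs and -1.03 without globins. Free RNA at the same 20% would give 16.1 and 28.3 Gabpa UMIs in Ery 6, against 32 and 13 counted. It would give 14.4 and 18.2 Fli1 UMIs there, against 4 and 4 counted, and 6.34 and 8.09 Etv6 UMIs, against 0 and 1 counted. Of these counts, only that of Gabpa in library 1 lies above what 20% would give. Ets1 had 0 UMIs in Ery 6 of both libraries, where 20% would give 16.1 and 5.05. The 20% is a setting and no estimate of the free RNA in these cells, and the Fli1, Etv6 and Ets1 counts lie below it. The part of free RNA in the Gabpa UMIs was not tested. In Ery 4 to Ery 6 the level in library 1 was above that in library 2. Leaving out library 1 made Gabpa lower past the fold in Ery 4 against Ery 3 and in Ery 6 against Ery 5. The shares of all genes called in library 2 alone are not given here.

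**Figure D5:**
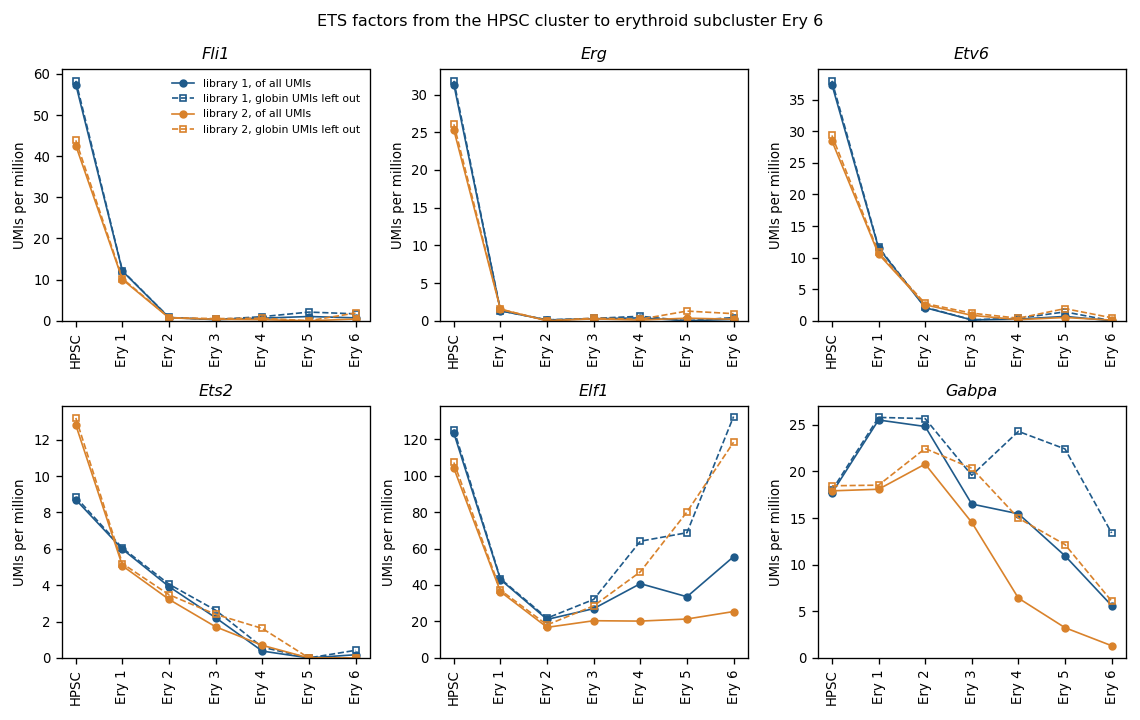
Level of 6 factors in CPM (y axis, from 0) from HPSC through the 6 erythroid subclusters (x axis), per library, of all UMIs (filled circles, solid lines) and with globin UMIs left out of the denominator (open squares, dashed lines). Fli1, Erg and Etv6 are near 0 from Ery 3 on, and the dashed lines of Elf1 reach 132 and 118 in Ery 6 while those of Gabpa do not.

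Other genes of the family and its partners were described by lists. Of 20 further ETS genes, 19 were in the files and 9 had enough UMIs in Mk against HPSC, where 4 were lower and none higher (7.02% and 8.18% of all genes), among them Spi1, the myeloid and lymphoid factor, at 320 and 318 CPM in HPSC and 24.7 and 27.6 CPM in Mk. Spi1, Etv3, Etv5, Elf4 and Elk3 were the 5 of 9 called lower in Ery 1 against HPSC, where none was higher (17.4% and 5.53% of all genes). In EC against HPSC, Elk3 was higher, at 206 and 194 CPM against 44.1 and 41.3, and Spi1 lower, out of 9 (10.7% of all genes higher, 5.17% lower). Elf2, a relative of Elf1, was called in none of the Mk, EC and Ery 1 comparisons, with 42.9 and 40.0 CPM in HPSC, 42.0 and 35.3 in EC, 32.5 and 20.7 in Mk and 28.4 and 26.8 in Ery 1.

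Of 10 partner genes, 2 were higher in Ery 1 than in HPSC, Gata1 at 164 and 166 CPM against 12.8 and 14.1 and Tal1 at 101 and 111 CPM against 30.4 and 31.0, and Runx1 and Cbfb were lower (5.53% of all genes higher, 17.4% lower). Gata1 and Tal1 were also higher in Mk than in HPSC, and no partner was lower there (8.18% of all genes higher, 7.02% lower). Lmo2 and Lyl1, which join TAL1 complexes, were not called in Ery 1 against HPSC, with Lmo2 at 427 and 336 CPM against 354 and 288. In EC, 6 of 10 partners were lower than in Mk, against 7.18% of all genes, Gata1 at 15.3 and 30.0 CPM against 313 and 187.

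All 8 endothelial genes were called higher in EC than in HPSC and than in Mk (10.7% and 10.1% of all genes), such as Eng, Kdr, Cdh5 and Pecam1, and all 7 megakaryocyte genes, such as Pf4, Gp1bb, Gp9 and Itga2b, were higher in Mk than in HPSC (8.18% of all genes). Some of these genes are also the markers of the clusters, so their direction is a property of the labels.

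The genes most like each member were found by the correlation over 13 groups of log2(CPM + 1), taken in each library and ranked by the lower of the 2 values among 7348 genes that reached 20 CPM in some group of each library. The 13 groups share their libraries, depth and clusters, so the values are descriptions only. Fli1 was most like Itga6, an integrin subunit of platelets and progenitors (r = 0.98 and 0.97), Klhl6 and Egln3. Erg was most like Cd93, Calcrl and Thsd1, membrane proteins of endothelium, Cd93 with r = 0.97 and 0.96. Etv6 was most like Smim24, Twf2 and Ptpre, Ets1 like Ccdc80, Cracr2b and Arhgap31, and Ets2 like Sntb2, Wsb2 and Obfc1. Elf1 was most like Dapp1, Plek, a platelet protein, and Angpt1, a ligand of TEK, with lower values of 0.90, 0.84 and 0.84, and Gabpa like Vps4a, Ppp2r5c and Tbpl1. Between members, the highest pair was Fli1 and Etv6 (r = 0.87 and 0.94), and Elf1 had the lowest values, such as -0.40 and 0.29 with Ets2.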

How the data were processed

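Cells of 1 mouse liver were sorted for live single cells and run as 2 technical libraries, so no group could be tested against another and replicate spread is technical. The authors deposited raw UMI counts per gene and barcode for each library, made with Cell Ranger 2.1.1 and bcl2fastq 2 on mm10 per the submitters' processing notes, although the matrix header of library 1 names 3.0.0, and a cell table with cell types and erythroid subclusters made with Seurat 3.2.0. Whether counting used strand is not given in the sources used here. Per the labels the sort gated out doublets before the droplets were made, and doublets formed in the droplets were neither called nor removed here. The kept cells had a median of 6261 and 9774 UMIs.

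Counts were summed per group and library with Python 3.11.15, numpy 2.4.6, pandas 2.3.3 and scipy 1.17.1, drawn with matplotlib 3.10.9, and given with exact Poisson, Clopper-Pearson or conditional binomial intervals at 95%. The steps were tested on simulated data. The 7 genes and the lists were chosen with earlier results of these data known. The text names all 7 genes, the 3 genes most like each, and up to 4 genes of each list with the highest level in HPSC, Mk, EC or Ery 1. Other list genes named as part of a count were chosen after their values were seen, as were the 4 parts of Ery 1, the parts of G and Ery 6 against Ery 2. Alternatives were each library alone, other denominators, fold limits and cell filters, free RNA subtracted and other measures of likeness.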

Additional observations from a re-analysis of the deposited data

Results flagged for a closer look

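The barcodes with 1 to 50 UMIs belong to no group compared, but they give the free RNA levels, also where free RNA was subtracted. In those of library 1, Ets1 stood at 14.2 CPM (9.42 to 20.5, from 28 UMIs). This was above the 2.25 CPM (1.86 to 2.70) of Ets1 in the kept cells of the same library and above the 2.55 CPM (0.828 to 5.95, from 5 UMIs) in such barcodes of library 2. The difference was seen in library 1 only, and its source was not tested. Ets2 in such barcodes of library 1 stood at 8.61 CPM (5.02 to 13.8), above the 4.25 CPM (3.71 to 4.85) of the kept cells. In library 2 Ets2 had 4.08 CPM in these barcodes and 3.98 CPM in the kept cells.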

How the results depend on the processing

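No paired analysis was possible because both libraries belong to 1 group and no result comes from a test. Of the 9 comparisons of cell groups, the number of the 7 genes past the 2-fold limit moved by over 1.5 times in 5 under some setting, by less in 3 and not at all in Ery 5 against Ery 4. In Mk against HPSC it was 3 and became 1 at 3-fold. In Ery 1 against HPSC it was 5 and became 3 per cell and 3 at 3-fold. In Ery 3 against Ery 2 it was 1 and became 3 per cell, 2 with free RNA subtracted, 2 at 1.5-fold and 0 at 3-fold. In Ery 4 against Ery 3 it was 1 and became 0 without globin UMIs, 0 at 3-fold and 0 when the counting interval had to clear 1 as well, and with 1 library left out it lay between 1 and 2. In Ery 6 against Ery 5 it was 0 and became 1 per cell, 1 with free RNA subtracted, 1 at 1.5-fold and 1 without the 10% of cells with the most UMIs, and with 1 library left out it lay between 0 and 1, each time with Gabpa lower. The shares of all genes called under these other settings are not given here, so the counts describe the settings and not the 7 genes. Counts per cell also carry depth, with a median of 19479 UMIs in Ery 2 and 10169.5 in Ery 3. Of the 21 most like genes, 5 were kept from either library alone, 9 with 10 CPM added, 12 at a minimum of 50 CPM and 2 by rank correlation, so those names depend on the setting. The cause was not tested. No called value of the 9 comparisons changed sign. In Ery 6 against Ery 2, outside the 9, Elf1 was 2.63-fold and 1.52-fold higher per UMI and 1.34-fold and 1.48-fold lower per cell. With library 1 left out, Ets1 passed the fold as higher in Mk than in HPSC, Fli1 as higher in EC than in HPSC and Ets2 as lower in Ery 1 than in HPSC, and with library 2 left out Etv6 passed it as lower in EC than in Mk. The 20 and 26 cells of EC and counts under 10 UMIs limit the precision.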
